A study of Mus musculus with 14 samples.

Results

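The genes described here encode the receptors, co-receptors, ligands and one processing factor through which vascular endothelial growth factors (VEGFs) and angiopoietins act on blood and lymphatic vessels. They are Kdr, Flt1 and Flt4 (the VEGF receptors), Nrp1 and Nrp2 (neuropilin co-receptors), Tek and Tie1 (the Tie receptors), Angpt2 and Vegfc (ligands) and Ccbe1 (a factor needed to process VEGF-C). They were chosen as the panel targets whose RefSeq identifiers map to these 10 symbols, 1 target per gene, among 23930 targets in all. All 10 were among the 14168 targets with enough reads to be tested.

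Liver sinusoidal endothelial cells (LSECs) are the perforated endothelium of the liver's capillaries, and their messenger RNA was counted. The aged libraries came from mice of 10 to 11 months and the young libraries from mice of 8 to 10 weeks. All mice were female C57BL/6J wild type animals without other treatment given in the labels, and the cells were sorted by flow cytometry as CD45-dim, STAB2-high and CD146-high. Each age had 7 libraries, 3 in experiment 1 and 4 in experiment 2, and a library is named here by age, experiment and replicate (aged 1.3 is replicate 3 of experiment 1). Whether each library is a separate mouse is not stated, so p-values measure the spread between libraries, part of which may be technical. The libraries were amplicon libraries (Ion AmpliSeq, mouse panel), in which a single short stretch stands for each target, so a level is compared here between libraries for one gene and not between genes.

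VEGF-A binds the receptor tyrosine kinases VEGFR1 (Flt1) and VEGFR2 (Kdr), and VEGFR2 carries most of its growth and permeability signal, whereas VEGFR1 binds VEGF-A tightly and signals weakly. VEGF-C is made as a precursor, is cut by the protease ADAMTS3 with the help of the secreted protein CCBE1, and then acts through VEGFR3 (Flt4), the receptor on which lymphatic growth depends. Angiopoietin 1 activates the receptor Tie2 (Tek), angiopoietin 2 (Angpt2) mostly weakens that signal, and Tie1 modulates it. LSECs are blood endothelial cells that also carry VEGFR3 and LYVE1, which elsewhere mark lymphatic vessels.

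The libraries held 6710403 to 13977361 gene reads each, and the 10 genes together took 0.443% (aged 1.3) to 0.727% (aged 2.1) of them. The LSEC scavenger receptor gene Stab2, which was part of the sorting gate as a protein, lay between 1656 and 2170 CPM (reads scaled to a common library size, here with the trimmed mean method, TMM) in aged libraries and between 1739 and 2376 CPM in young libraries. Of the lymphatic markers, Pdpn had at most 15 reads per aged library and 40 per young library. Mmrn1 had at most 3 reads per aged library and 69 per young library, and both were highest in young 2.4. Prox1, a regulator of lymphatic identity, had at most 21.8 CPM in aged libraries and 15.9 CPM in young libraries. Reln had at most 82.7 CPM in aged libraries and 32.7 CPM in young libraries.

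Of the 10 genes, only Ccbe1 differed between the ages past the threshold, a Benjamini-Hochberg adjusted p under 0.05 over all tested targets in edgeR's quasi-likelihood test with experiment as a term. Ccbe1 was 4.17-fold higher in aged LSECs. The receptors, the co-receptors and both ligands did not pass, with log2 fold changes of aged over young between -0.37 (Vegfc) and 0.21 (Angpt2). One of 10 genes called compares with 0.162% of all tested targets (23 of 14168), or 0.0776% higher and 0.0847% lower in aged cells. The 10 genes were chosen with earlier results of these data known, so an excess of calls among them was not tested. The median log2 fold change was -0.094 over the 10 genes and -0.0022 over all tested targets. Of the 10, 3 lay above 0 and 7 below, against 49.6% above and 50.4% below of all tested targets. In bulk RNA, fewer cells of a type and less RNA per cell cannot be told apart.

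**Figure D1:**
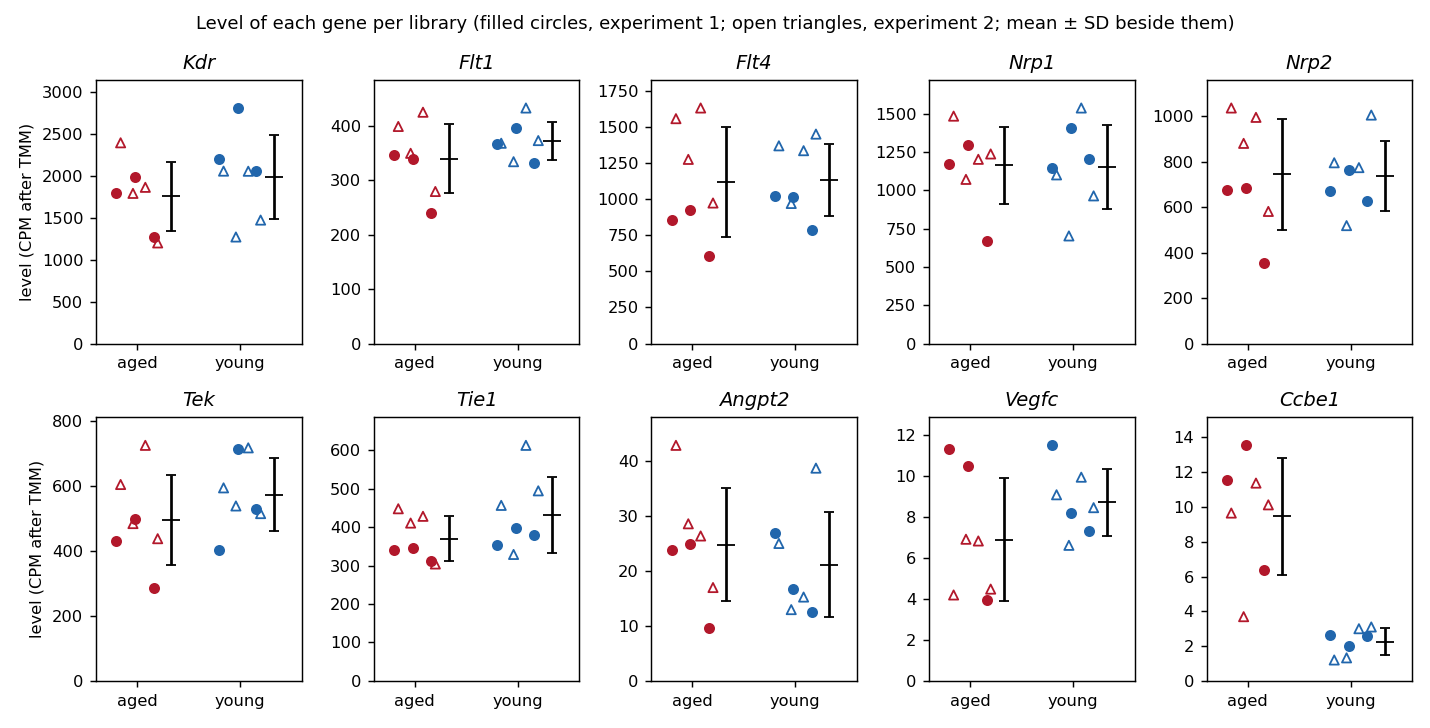
Level of each gene in CPM after TMM (vertical axes start at 0) in the 7 aged and 7 young libraries, with filled circles for experiment 1, open triangles for experiment 2 and the mean ± SD beside each group. Ccbe1 is the only gene of the 10 whose aged libraries (3.69 to 13.5 CPM) and young libraries (1.20 to 3.10 CPM) do not overlap.

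The receptor genes for VEGF-A, Kdr and Flt1, had between 2518 and 32207 reads in every library. Kdr (NM_010612.2) had a lowest level of 1201 CPM, a median of 1797 CPM and a highest level of 2397 CPM in aged libraries, against 1272, 2059 and 2812 CPM in young libraries. The groups overlapped over most of their range, with the lowest level of all in aged 2.4 and the highest in young 1.2. Kdr averaged 1758 ± 413 CPM in aged libraries and 1991 ± 502 CPM in young libraries (SD, n = 7 each), a log2 fold change of -0.16 (SE 0.19, edgeR adjusted p = 0.9995). Within experiment 1 its groups did not overlap, with 1797, 1983 and 1267 CPM in aged 1.1, 1.2 and 1.3 and 2198, 2812 and 2062 CPM in young 1.1, 1.2 and 1.3, whereas in experiment 2 they did. With 3 libraries per age such a gap was common: it held for 3 of the 10 genes in experiment 1 (Kdr, Tie1 and Ccbe1) and for 19.0% of all tested targets, and in experiment 2 for Ccbe1 and for 1.37% of all tested targets. The 95% interval of Kdr over both experiments was 0.672-fold to 1.19-fold.

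Flt1 (NM_010228.3) ran from 239.2 through a median of 346.7 to 424.4 CPM in aged libraries and from 330.5 through 367.5 to 432.1 CPM in young libraries. Aged 1.3 and aged 2.4 lay under all 7 young libraries, and the other 5 aged libraries lay within the young range. The coefficient of variation was 18.8% in aged and 9.46% in young libraries. The log2 fold change was -0.13 (SE 0.12, edgeR adjusted p = 0.9995), with a 95% interval of 0.763-fold to 1.09-fold.

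Flt4 (NM_008029.3), the VEGF-C receptor gene, had 606.6 CPM at the lowest, 972.3 CPM at the median and 1630 CPM at the highest in aged libraries, and 783.6, 1023 and 1449 CPM in young libraries. Both ages were higher in experiment 2, where Flt4 averaged 1358 CPM in aged libraries and 1280 CPM in young libraries, than in experiment 1, with 794.7 CPM in aged libraries and 939.2 CPM in young libraries. The groups overlapped in both experiments. With experiment as a term the log2 fold change was -0.055 (SE 0.16), and it was 0.024 without aged 1.3 and 0.0021 without aged 2.4, so its sign rested on single libraries.

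Promoter sequences are shown for 3 receptor genes, because the series title names the transcription factor ETS1 and ETS proteins bind DNA around a GGAA core. The 250 bases before the RefSeq start are given in the direction of transcription, from RefSeq on GRCm38.p6, with each GGAA, or TTCC where the core lies on the other strand, in capitals. Kdr lies on the minus strand at chr5:75978456-75978705, Flt1 on the minus strand at chr5:147726012-147726261 and Tek, the Tie2 gene, on the plus strand at chr4:94739039-94739288.
Kdr: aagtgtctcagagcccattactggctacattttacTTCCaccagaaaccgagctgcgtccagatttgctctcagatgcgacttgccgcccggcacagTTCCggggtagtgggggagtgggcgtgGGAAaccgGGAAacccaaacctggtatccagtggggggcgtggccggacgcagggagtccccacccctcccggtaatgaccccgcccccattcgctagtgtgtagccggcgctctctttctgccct
Flt1: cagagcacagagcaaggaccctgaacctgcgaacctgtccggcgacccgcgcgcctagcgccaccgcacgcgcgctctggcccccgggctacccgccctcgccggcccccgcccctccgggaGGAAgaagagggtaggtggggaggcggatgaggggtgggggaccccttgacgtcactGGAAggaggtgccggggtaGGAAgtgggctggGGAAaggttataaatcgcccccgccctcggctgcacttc
Tek: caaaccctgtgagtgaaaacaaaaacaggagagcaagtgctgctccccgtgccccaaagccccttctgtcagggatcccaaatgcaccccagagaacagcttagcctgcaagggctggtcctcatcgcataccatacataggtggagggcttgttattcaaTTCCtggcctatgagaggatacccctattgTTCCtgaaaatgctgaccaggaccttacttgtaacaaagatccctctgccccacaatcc
The core occurred 4 times before Kdr, 4 times before Flt1 and 2 times before Tek. Searched on both strands, GGAA was found in all 8 of the 10 genes that had a promoter entry, in 1 (Nrp2, Vegfc) to 7 (Tie1) copies, and in 93.4% of 32526 mouse promoters of the same length, so nearly every promoter holds it. The longer forms CCGGAA and CAGGAA, each of which holds the core, were found in 4 of the 8 (Kdr, Nrp2, Tek and Tie1) and in 35.02% of all promoters. The GC box letters GGGCGG were found in 6 of the 8 and in 32.98% of all promoters, and the TATA box letters TATAAA in Flt1 alone of the 8 and in 12.3% of all promoters. AGATAA and TGATAA, forms of the GATA motif, were found in 0 of the 8 and in 16.5% of all promoters. These are matches of letters, and no binding was measured here.

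The neuropilins hold VEGFs beside their receptors and also receive class 3 semaphorins. Nrp1 (NM_008737.2) ran from 671.6 through a median of 1202 to 1484 CPM in aged libraries and from 702.4 through 1147 to 1537 CPM in young libraries. Nrp2 (NM_001077403.1) ran from 352.4 through 683.9 to 1035 CPM in aged libraries and from 518.3 through 764.8 to 1004 CPM in young libraries. The groups overlapped almost wholly for Nrp1, while for Nrp2 only aged 1.3 lay under the lowest young library and only aged 2.1 above the highest. The log2 fold changes were 0.012 for Nrp1 (SE 0.19) and -0.015 for Nrp2 (SE 0.19), and both took either sign when single libraries were left out, as did Nrp2 without scaling (0.037). The 95% intervals were 0.759-fold to 1.34-fold for Nrp1 and 0.741-fold to 1.32-fold for Nrp2.

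The Tie receptor genes both lay lower on average in aged libraries without passing the test. Tek (NM_001290549.1) ran from 287.2 through a median of 484.5 to 725.4 CPM in aged libraries and from 402.1 through 538.7 to 717.7 CPM in young libraries. Its log2 fold change was -0.23 (SE 0.17), and only aged 1.3 lay under the lowest young library while only aged 2.3 lay above the highest. Tie1 (NM_011587.2) ran from 304.2 through 344.7 to 447.8 CPM in aged libraries and from 329.0 through 397.5 to 612.8 CPM in young libraries. None of the 7 aged libraries exceeded, on the log2 scale, the mean of the young libraries of its experiment, although the groups overlapped between 329.0 and 447.8 CPM. Tie1 averaged 369.9 ± 58.0 CPM in aged libraries and 431.8 ± 98.4 CPM in young libraries (SD, n = 7 each), a log2 fold change of -0.22 (SE 0.13, edgeR adjusted p = 0.906). That was the smallest p among the 9 genes not called (unadjusted p = 0.109, edgeR's quasi-likelihood test).

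The ligands had far fewer reads than the receptors, and their counts were correspondingly less precise. Angpt2 (NM_007426.4), the Tie2 ligand that endothelial cells store and release, had 120 to 378 reads per aged library and 98 to 368 reads per young library. In level it ran from 9.70 through a median of 24.9 to 42.9 CPM in aged libraries and from 12.5 through 16.8 to 38.8 CPM in young libraries. The young libraries fell into 4 between 12.5 and 16.8 CPM and 3 between 25.03 and 38.8 CPM, and aged levels spread over the whole of that range. The log2 fold change was 0.21 (SE 0.31), with a 95% interval of 0.723-fold to 1.84-fold.

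Vegfc (NM_009506.2), the ligand of VEGFR3, had 37 to 146 reads per aged library and 50 to 157 reads per young library. It ran from 3.96 through a median of 6.84 to 11.3 CPM in aged libraries and from 6.62 through 8.47 to 11.5 CPM in young libraries. Aged 1.3, aged 2.1 and aged 2.4 lay under all 7 young libraries, and the coefficient of variation was 43.7% in aged and 18.7% in young libraries. In experiment 1 aged 1.1 and aged 1.2 had 11.3 and 10.5 CPM, whereas aged 1.3 had 3.96 CPM. In experiment 2 the aged libraries had 4.20, 6.92, 6.84 and 4.49 CPM and the young libraries 9.09, 6.62, 9.95 and 8.47 CPM, so that only young 2.2 reached down into the aged range. The log2 fold change was -0.37 (SE 0.27, edgeR adjusted p = 0.9995), with a 95% interval of 0.518-fold to 1.15-fold.

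Ccbe1 (NM_178793.4), which encodes the collagen and calcium binding EGF domain protein that assists the cutting of VEGF-C, rose in aged cells. In experiment 1 it had 11.6, 13.5 and 6.39 CPM in aged 1.1, 1.2 and 1.3, against 2.64, 2.01 and 2.57 CPM in young 1.1, 1.2 and 1.3. In experiment 2 it had 9.65, 3.69, 11.4 and 10.1 CPM in aged 2.1, 2.2, 2.3 and 2.4, against 1.20, 1.32, 3.00 and 3.10 CPM in young 2.1, 2.2, 2.3 and 2.4. All 7 aged libraries lay above all 7 young libraries, which held for 1 of the 10 genes and for 0.233% of all tested targets (33 of 14168; 0.12% with aged higher). The nearest pair was aged 2.2, from 32 reads, with an exact 95% Poisson interval of 2.53 to 5.21 CPM, and young 2.4, from 26 reads, with 2.03 to 4.54 CPM, and these intervals overlap. Both cover counting error only, since amplicon reads carry no molecular identifiers here.

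Ccbe1 averaged 9.47 ± 3.36 CPM in aged libraries and 2.26 ± 0.769 CPM in young libraries (SD, n = 7 each). The log2 fold change was 2.06 (SE 0.33, edgeR adjusted p = 0.0216), higher in 7 of 7 aged libraries than the young mean of their experiment, with a 95% interval of 2.56-fold to 6.80-fold. Among all tested targets it ranked 14 by p and 103 by the size of its fold change. The call held in 15 of 25 alternatives. Of those that left out or joined libraries, it did not hold without aged 1.1, aged 1.2, aged 2.1, aged 2.3, young 1.1, young 1.2, young 1.3 or young 2.4, with adjusted p between 0.0551 and 0.0836 in edgeR, nor with aged 1.1 and aged 1.2, summed as 1 (edgeR adjusted p = 0.0728). Those 2 libraries were more alike than any other pair of one age and experiment (r = 0.98 of log2 CPM), although their counts differed by 6.39 times the variance of sampling noise (chi-square per degree of freedom), against 18.9 or more for the other pairs, and whether they come from separate mice is not known. The log2 fold change itself lay between 1.95 and 2.44 in every alternative run.

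**Figure D2:**
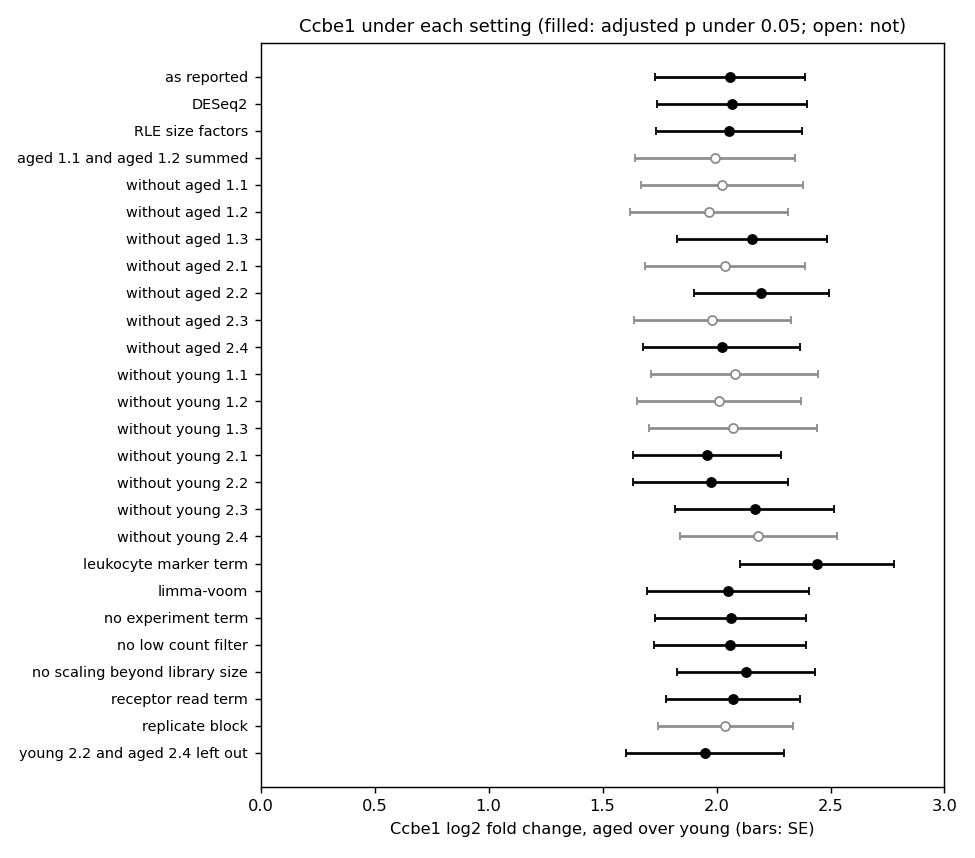
Ccbe1 log2 fold change of aged over young (horizontal axis, from 0) with its SE as reported and under each of 25 alternatives, filled where the adjusted p was under 0.05 and open where it was not. The estimates lie between 1.95 and 2.44, and 10 of the 25 alternatives are open.

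The experiments were also compared singly, to ask whether the age difference of each gene was alike in both. In experiment 1, 0 of the 10 genes and 0 of 14168 targets (0.0%) were called by edgeR, where 914 (6.45%) had an unadjusted p under 0.05, against 86 calls by DESeq2 and 1 by limma-voom. In experiment 2, 0 of the 10 genes and 1 of 14168 targets (0.00706%) were called by edgeR, where 395 (2.79%) had an unadjusted p under 0.05, against 53 calls by DESeq2 and 3 by limma-voom. Ccbe1 had a log2 fold change of 2.12 in experiment 1 (SE 0.52, edgeR adjusted p = 0.551) and of 2.02 in experiment 2 (SE 0.45, edgeR adjusted p = 0.444). The estimates differed by -0.10 (experiment 2 minus experiment 1), well within the SE of 0.67.

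For the other genes the experiments gave estimates on different sides of 0 in several cases. Kdr had a log2 fold change of -0.49 in experiment 1 (SE 0.28) and 0.081 in experiment 2 (SE 0.24). Flt4 had -0.24 (SE 0.24) and 0.085 (SE 0.20), Nrp1 -0.26 (SE 0.28) and 0.21 (SE 0.25), and Nrp2 -0.27 (SE 0.29) and 0.18 (SE 0.25) in experiments 1 and 2. Flt1, Tek, Tie1 and Vegfc were below 0 in both, and Angpt2 was above 0 in both. The test of the difference between the experiments called 0 of the 10 genes and 0 of 14168 targets (0.0%) in edgeR, where 309 (2.18%) had an unadjusted p under 0.05, and 0 in DESeq2 and limma-voom. The adjusted p of that difference was 0.9998 for each of the 10 genes in edgeR.

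**Figure D3:**
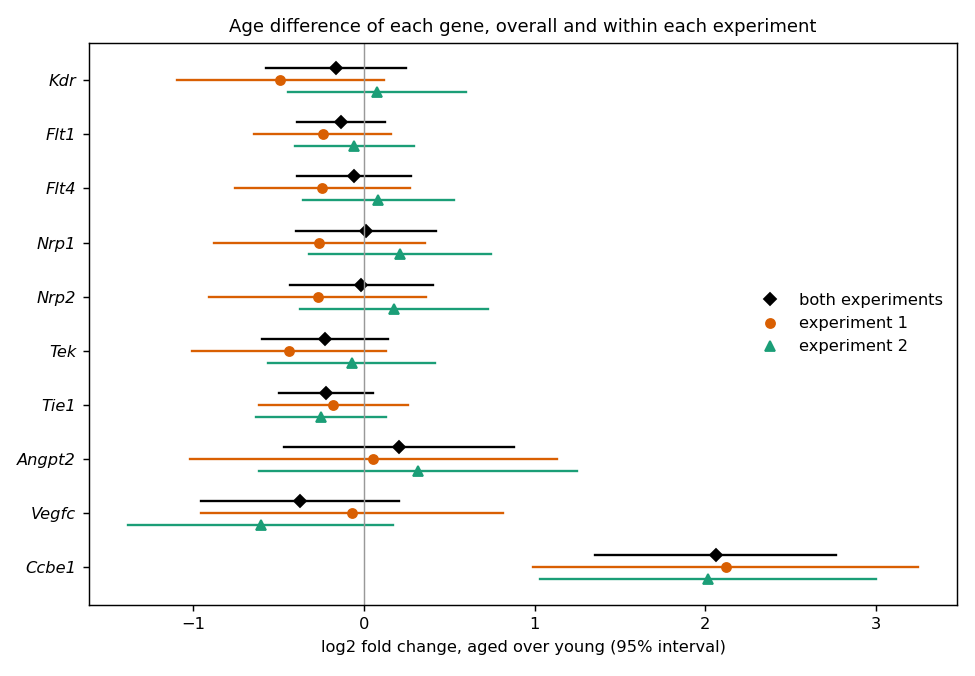
Log2 fold change of aged over young (horizontal axis) with its 95% interval for each gene over both experiments (diamonds), in experiment 1 (circles) and in experiment 2 (triangles). Only the intervals of Ccbe1 lie wholly above 0, and the other intervals all include 0.

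Levels of the 9 genes other than Ccbe1 differed between libraries of one age, and often together. Aged 1.3 was the lowest of the 14 libraries for 7 of the 10 genes (Flt1, Flt4, Nrp1, Nrp2, Tek, Angpt2 and Vegfc), and its median deviation from the mean of its experiment was -0.65 on the log2 scale. Aged 2.4 was the lowest for Kdr and Tie1, with a median deviation of -0.44. All 10 genes lay under the experiment mean in young 2.2, with a median deviation of -0.43. Young 2.2 had the fewest gene reads (6710403) and the highest T and NK cell marker sum of the young libraries (148.8 CPM). Olfactory, vomeronasal and taste receptor reads made up 2.92% of gene reads in young 2.2 and 2.81% in aged 2.4, the highest of experiment 2. In experiment 1 they made up 1.20 to 3.18%.

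Aged 1.3 also stood apart in the markers of several cell types. The summed level of the LSEC markers, a list that includes Flt4, was 20203 CPM in aged 1.3, within a range of 20203 to 34400 CPM in aged libraries and 25311 to 38345 CPM in young libraries. Its hepatocyte markers summed to 4190 CPM, the highest of all libraries, within 385.3 to 4190 CPM in aged libraries and 303.9 to 1672 CPM in young libraries. Its T and NK cell markers summed to 359.5 CPM, within 5.01 to 359.5 CPM in aged libraries and 2.27 to 148.8 CPM in young libraries. The markers of periportal LSECs and portal vessels summed to 2103 CPM in aged 1.3, the lowest of all libraries, and 2872 CPM in aged 2.4. Those sums ran from 2103 to 5976 CPM in aged libraries and from 3952 to 5444 CPM in young libraries. The markers of pericentral LSECs and the central vein summed to 2396 CPM in aged 1.3, the highest of the aged libraries. Whether these sums and the low levels of the genes are linked was not tested. Without aged 1.3, the log2 fold changes were -0.067 for Kdr, -0.066 for Flt1, 0.13 for Nrp1, 0.10 for Nrp2, -0.13 for Tek, -0.21 for Tie1, 0.34 for Angpt2 and -0.26 for Vegfc, and none was called by edgeR. Ccbe1 was as large without it, with a log2 fold change of 2.16 (edgeR adjusted p = 0.0232).

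**Figure D4:**
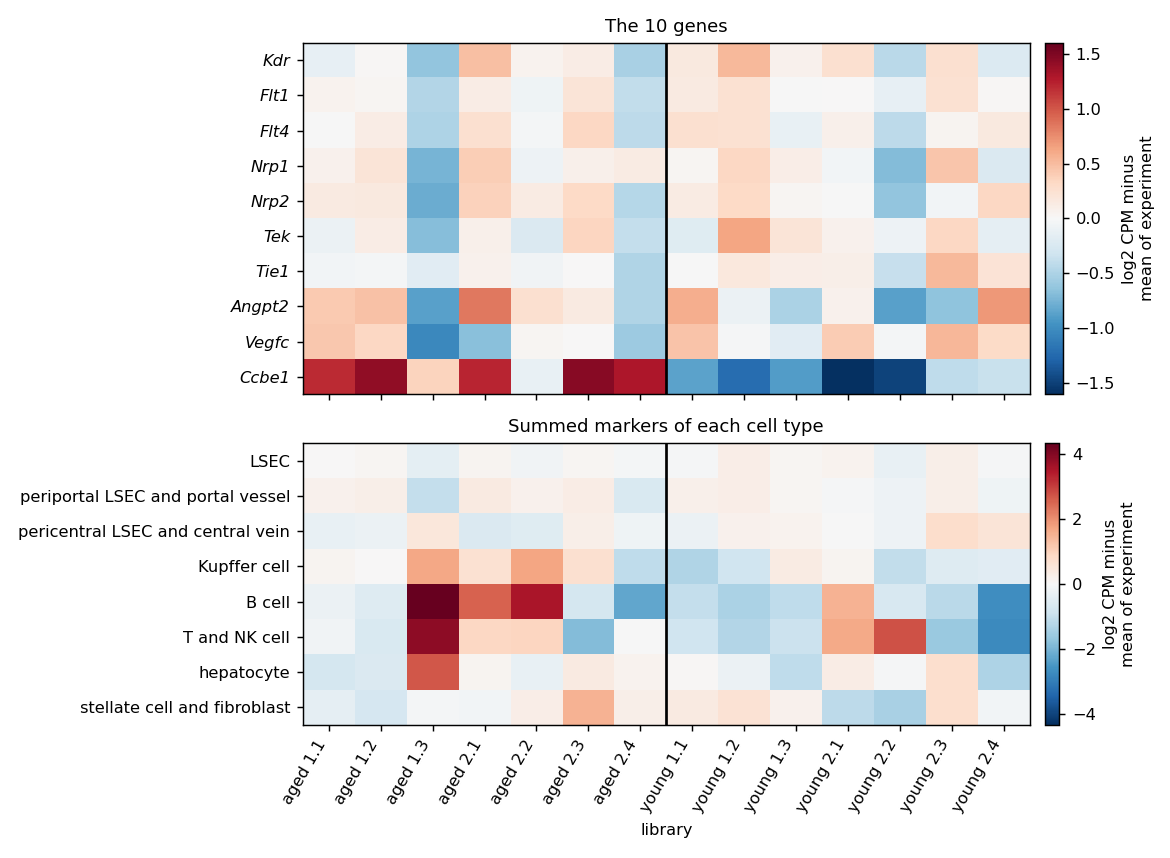
Upper panel, log2 CPM of each gene in each library minus the mean of its experiment; lower panel, the same for the summed markers of 8 cell types, with aged libraries left of the black line and young libraries right of it (colour scales in log2 units, with a wider range below). The column of aged 1.3 is low for 9 of the 10 genes and high for the Kupffer, B cell, T and NK cell and hepatocyte markers, while Ccbe1 is above its experiment mean in every aged column but aged 2.2 (-0.12) and below it in every young column.

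Markers of other cell types that the sort could have let through are set here beside Ccbe1. All 8 of 8 tested Kupffer cell markers (11 listed) had log2 fold changes above 0, with a median of 1.71 and 0 called, and their sum ran from 35.8 to 294.5 CPM in aged libraries and from 36.3 to 118.6 CPM in young libraries. No measured Kupffer or B cell marker was at 0 in every library, but C1qa had at most 1 read per library at either age. C1qb reached 693 reads in aged and 431 reads in young libraries. All 3 tested B cell markers lay above 0, with a median of 3.07 and sums of 2.50 to 191.1 CPM in aged libraries and 1.55 to 45.4 CPM in young libraries. With the summed Kupffer and B cell markers as a term in the model, the Ccbe1 log2 fold change was 2.44 (edgeR adjusted p = 0.0296). That term is confounded with age, since the tested markers of both lists lay above 0, so the fit cannot assign the Ccbe1 reads to a cell type. The cell source of the Ccbe1 reads was not tested.

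Stellate cells and fibroblasts are known to make matrix proteins and growth factors around vessels. Of their 8 tested markers 5 lay above 0, with a median log2 fold change of 0.19 and 0 called, and the sums ran from 36.4 to 400.1 CPM in aged libraries and from 53.0 to 234.8 CPM in young libraries. Aged 2.3, with 11.4 CPM of Ccbe1, had the highest sum of all libraries, and aged 1.2, with 13.5 CPM of Ccbe1, the lowest. Those libraries come from different experiments. Within experiment 1 the sums were 46.4, 36.4 and 57.5 CPM in aged 1.1, 1.2 and 1.3. Ccbe1 there had 11.6, 13.5 and 6.39 CPM. In young 1.1, 1.2 and 1.3 the sums were 80.1, 95.3 and 69.7 CPM. Ccbe1 there had 2.64, 2.01 and 2.57 CPM. Within experiment 2 the sums were 128.6, 171.3, 400.1 and 167.5 CPM in aged 2.1, 2.2, 2.3 and 2.4. Ccbe1 there had 9.65, 3.69, 11.4 and 10.1 CPM. In young 2.1, 2.2, 2.3 and 2.4 the sums were 63.6, 53.0, 234.8 and 130.8 CPM. Ccbe1 there had 1.20, 1.32, 3.00 and 3.10 CPM. The lymphatic markers summed to 4.04 to 94.2 CPM in aged libraries and 8.58 to 43.3 CPM in young libraries. The highest lymphatic sum was again in aged 2.3, and the lowest in aged 1.1, where Ccbe1 had 11.6 CPM. Within experiment 1 the lymphatic sums were 4.04, 5.12 and 9.46 CPM in aged 1.1, 1.2 and 1.3. In young 1.1, 1.2 and 1.3 they were 12.5, 15.9 and 8.58 CPM. Within experiment 2 the lymphatic sums were 27.0, 40.0, 94.2 and 28.0 CPM in aged 2.1, 2.2, 2.3 and 2.4. In young 2.1, 2.2, 2.3 and 2.4 they were 15.7, 11.8, 38.7 and 43.3 CPM. Hepatocyte markers had 4 of 4 tested members above 0, with a median of 0.74, sums of 385.3 to 4190 CPM in aged libraries and 303.9 to 1672 CPM in young libraries, and 0 called. Of the 7 tested markers of pericentral LSECs and the central vein, 3 lay above 0, with a median of -0.32, sums of 1233 to 2396 CPM in aged libraries and 1436 to 3215 CPM in young libraries, and 1 called. That 1 was Dkk3, a secreted Dickkopf family protein, at 70.6 ± 23.2 CPM in aged libraries and 21.1 ± 11.7 CPM in young libraries (SD, n = 7 each), a log2 fold change of 1.79 (SE 0.23, edgeR adjusted p = 0.00714). Of the 5 tested T and NK cell markers 3 lay above 0, with a median log2 fold change of 0.65 and 0 called. Of the 2 tested cholangiocyte markers 2 lay above 0, with a median of 0.83 and 0 called. No model with a term for any of these lists was run. The part of any cell type in the Ccbe1 difference, Kupffer and B cells included, was thus not tested.

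The levels of Ccbe1 over the 14 libraries were set beside those of 11750 targets with a mean of at least 5 CPM, after the mean of each experiment was subtracted from log2 CPM. Among the most alike were Prune1 (Pearson's r = 0.91, Spearman's rho = 0.90), Sncg (r = 0.90, rho = 0.83), Ptgis (r = 0.88, rho = 0.88) and Tmem63c (r = 0.86, rho = 0.78). These values describe libraries that share the split by age: over the 7 aged libraries alone r was 0.82 for Prune1, 0.83 for Sncg, -0.022 for Ptgis and 0.22 for Tmem63c, and over the 7 young libraries alone it was 0.43 for Prune1, 0.66 for Sncg, 0.87 for Ptgis and 0.13 for Tmem63c. Ptgis, the prostacyclin synthase gene, had 14.9 ± 8.36 CPM in aged libraries and 2.04 ± 1.32 CPM in young libraries (SD, n = 7 each) and was called (edgeR adjusted p = 0.0330), as was Tmem63c (edgeR adjusted p = 0.00714), which encodes a membrane protein of an ion channel family. Likeness to Ccbe1, itself called, favours targets that differ by age, so these calls add no separate support. Sncg, Ptgis and Tmem63c averaged 3.54, 2.04 and 1.05 CPM in young libraries. They passed the limit of 5 CPM, a mean over all 14 libraries, through their aged levels. None of the other 9 genes described here was among the 5 most alike targets, and the r of those 9 with Ccbe1 lay between -0.29 (Vegfc) and 0.31 (Angpt2).

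Of 87 further genes of these pathways, 82 had a target and 69 were tested. None was called by edgeR, against 0.162% of all targets, or by limma-voom, against 22 of 14168 targets. DESeq2 called 3 (Cxcr4 higher, Pik3r1 and Ppp3ca lower in aged cells), against 146 of 14168 targets. At an unadjusted p under 0.05 there were 9, 4 higher and 5 lower in aged cells, against 6.77% of all targets (959 of 14168). Their median log2 fold change was -0.024.

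The other VEGF ligands and the genes that process VEGF-C could be followed only in part, since 3 of 8 with a target were tested. Vegfa, the main ligand of VEGFR2, averaged 22.7 ± 7.58 CPM in aged libraries and 30.9 ± 12.8 CPM in young libraries (SD, n = 7 each), a log2 fold change of -0.46 (SE 0.26). Vegfb, a ligand of VEGFR1, and Adamts14, a relative of Adamts3, had log2 fold changes of 0.41 and -0.60. Adamts3, the protease that works with CCBE1, had 0 to 21 reads in aged and 1 to 10 reads in young libraries, too few to be tested, and Vegfd, the other VEGFR3 ligand, had 0 to 10 reads in aged and 0 to 3 reads in young libraries.

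Beside Angpt2, Angpt1, the activating ligand of Tie2, had 0 to 29 reads in aged and 0 to 4 reads in young libraries and was not tested. Ptprb, the phosphatase VE-PTP that holds Tie2 in check, averaged 3216 ± 578 CPM in aged libraries and 3264 ± 397 CPM in young libraries (SD, n = 7 each), and like Tek it was not called. Ptprj, a phosphatase that leukocytes also express, had a log2 fold change of 1.71 (SE 0.58, edgeR adjusted p = 0.567), which was -0.0014 with the Kupffer and B cell markers as a term. Of the 7 tested genes downstream of Tie2 none was called, and Foxo3, Grb14 and Grb7, those of smallest p, had log2 fold changes of 0.27, 0.94 and 1.07, the last of which was 0.12 with the Kupffer and B cell markers as a term. That term is confounded with age, and the cell source of the Ptprj and Grb7 reads was not tested.

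Among 26 genes that carry the VEGF receptor signal, 0 were called, 17 lay below 0, and the median log2 fold change was -0.07. Pik3r1, the regulatory subunit of phosphoinositide 3-kinase, came closest. It ran from 199.5 through a median of 248.1 to 273.2 CPM in aged libraries and from 298.0 through 321.0 to 428.3 CPM in young libraries. For Pik3r1, named for its small p, the groups thus did not overlap, which held for 0.233% of all tested targets (33 of 14168). Its log2 fold change was -0.55 (SE 0.10, edgeR adjusted p = 0.0590), and it passed under 8 of 25 alternatives, among them DESeq2 and size factors in place of TMM. Ppp3ca, the calcineurin catalytic subunit of the NFAT branch, had 211.4 ± 9.59 CPM in aged libraries and 268.1 ± 43.0 CPM in young libraries (SD, n = 7 each), a log2 fold change of -0.34 (SE 0.10, edgeR adjusted p = 0.460). The adaptor gene Shb had -0.41.

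Among 14 genes that VEGF induces in endothelial cells, 0 were called and 10 lay below 0, with a median of -0.096. Pdgfb and Dusp5 had log2 fold changes of 0.74 and -0.71, and Cxcr4, a chemokine receptor of endothelial tip cells and leukocytes, had 2.46 (SE 0.76, edgeR adjusted p = 0.491), which was 1.28 without aged 1.3 and -0.0049 with the Kupffer and B cell markers as a term. The cell source of the Cxcr4 reads was not tested. The ligands and plexin partners of Nrp1 and Nrp2 had 9 tested members, 0 called and a median of 0.0069, with 0.58 for Sema3d, -0.19 for Plxna1 and -0.28 for Plxna4.

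Lymphatic identity genes were described by 8 tested members, of which 0 were called, with a median log2 fold change of 0.088. Lyve1, the hyaluronan receptor of lymphatic vessels and LSECs, ran from 322.9 through 673.2 to 1628 CPM in aged libraries and from 883.0 through 1278 to 2321 CPM in young libraries. The groups overlapped between 883.0 and 1628 CPM, and the log2 fold change was -0.68 (SE 0.27, edgeR adjusted p = 0.672). The regulators Nr2f2 and Sox18 had -0.29 and 0.26.

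**Figure D5:**
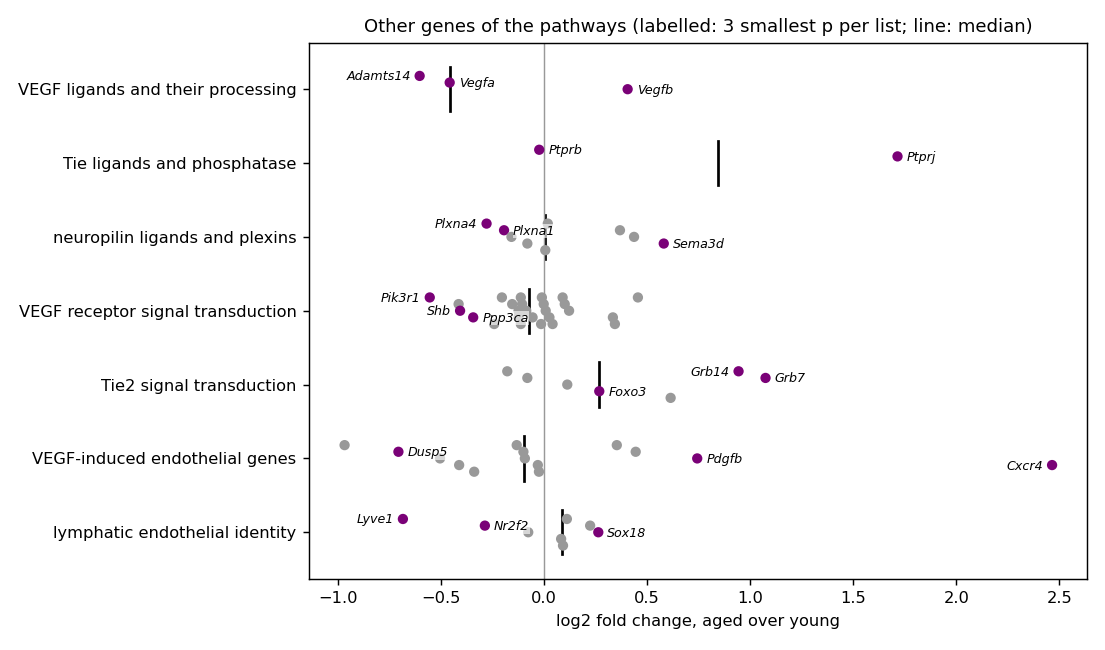
Log2 fold change of aged over young (horizontal axis) of the 69 tested pathway genes other than the 10, by list, with the genes of smallest p in colour and named, and a black line at the median of each list. No gene was called, and the list medians lie between -0.46 (VEGF ligands and their processing, 3 genes) and 0.85 (Tie ligands and phosphatase, 2 genes).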

How the data were processed

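Sorted LSEC libraries, 7 aged and 7 young, were analysed. The authors deposited raw read counts per RefSeq target, 1 file per library. HTSeq 0.6.0 and DESeq2 1.18.1 are named, per the submitters' processing notes. Aligner, build, strand setting and the handling of ambiguous reads were not given in the sources used here. The 5 bookkeeping entries of the counting tool (1.24 to 3.04% of reads) were left out. Identifiers were named from the RefSeq table of GRCm38.p6 (18128 with their version, 4324 without) or GENCODE (110), and 1368 stayed unnamed. Since the authors' build is unknown here, no positions are given for the counted targets. Promoter sequences and their positions come from the RefSeq table of GRCm38.p6 and not from the deposited files. Genes without a promoter entry are Angpt2 and Ccbe1.

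Counts were tested in R 4.3.3 with edgeR 4.0.16 (filterByExpr by age, TMM, quasi-likelihood F test) in a model of experiment and age. A model with 4 means gave each experiment and their difference. Adjusted p-values (Benjamini-Hochberg) cover all 14168 tested targets, with a threshold of 0.05. Each SE is the absolute log2 fold change over the square root of F. Levels are TMM-scaled CPM, and log2 CPM used a prior count of 2. Depth was 6710403 to 13977361 gene reads, with 12637 to 15168 targets at 10 reads or more. The steps were also run on simulated counts with the same spread for every target and no difference between experiments. That run checks the code and not how the test fares with the spread of these libraries. Alternatives used DESeq2 1.42.0, limma-voom (limma 3.58.1), other scalings and filters, added terms, a replicate block and fewer libraries.

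The genes and lists were chosen with earlier results of these data known. Named genes are the 10, every called gene and up to 3 of smallest p per pathway list, the 5 targets most alike to Ccbe1 (1 of them is not reported here), and Stab2, Lyve1, Prox1 and Pdpn. Dkk3, Reln and Mmrn1 were named after their values were seen.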

Additional observations from a re-analysis of the deposited data

How the results depend on the processing

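Ccbe1 stayed above 0 in all 25 alternatives and under an adjusted p of 0.05 in 15. Of the 10 genes, calls (1 as reported) were 0 with aged 1.1 and aged 1.2 summed and 0 with the replicate block, and 0 to 1 with single libraries left out. The replicate block gave Ccbe1 a log2 fold change of 2.04 (edgeR adjusted p = 0.106). Same-numbered libraries did not all deviate together (correlations of -0.38 to 0.78), so the numbers were not taken to pair them.

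Targets called, 23 as reported, were 146 by DESeq2, 4 with aged 1.1 and aged 1.2 summed and 4 with the leukocyte marker term. They were 12 without an experiment term, 46 without scaling, 59 with a receptor read term (olfactory, vomeronasal and taste) and 5 with the replicate block. They were 36 without young 2.2 and aged 2.4, and 4 to 29 with single libraries left out. Young 2.2 and aged 2.4 ranked highest for receptor reads within experiment 2 alone. Aged 1.1, aged 1.3 and young 1.1 each had a larger share. In experiment 1 (0 reported) the targets called were 86 by DESeq2, 1 by limma-voom, 1 without scaling, 2 with the receptor term and 2 without young 2.2 and aged 2.4. In experiment 2 (1 reported) they were 53 by DESeq2, 3 with RLE size factors, 2 with the leukocyte term, 3 by limma-voom, 5 without scaling, 21 with the receptor term, 0 with the replicate block, 3 without young 2.2 and aged 2.4, and 1 to 3 with single libraries left out. The causes were not tested.

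The signs of 6 log2 fold changes turned. Nrp1 was -0.013 with aged 1.1 and aged 1.2 summed, -0.0022 without the filter, -0.099 without young 2.2 and aged 2.4, and -0.091 to 0.13 with single libraries left out. Nrp2 was 0.014 without an experiment term, 0.037 without scaling, and -0.11 to 0.10 with single libraries left out. Flt4 was -0.13 to 0.024 and Ptprb -0.073 to 0.048 with single libraries left out, and Ptprb was 0.030 without scaling. With the leukocyte term Cxcr4, 2.46 as reported, was -0.0049 and Ptprj, 1.71 as reported, was -0.0014. Low counts of Ccbe1, Vegfc and Angpt2 limit their precision.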
